A study of Homo sapiens with 6 samples.

Results

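The genes described here are the ABC transporters of OE-19 cells, in control cells and in cells with IGF2BP3 knocked down. They are the rows that the deposited count table types as coding and whose symbol is ABC, a letter from A to G and a number, which took no measured value into account. There were 45 such genes among the 60480 identifiers of the table, 12 in subfamily A, 9 in B, 11 in C, 4 in D, 1 in E, 3 in F and 5 in G. Of these, 34 had enough counts to be tested and 11 did not.

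ABC transporters use ATP bound at paired nucleotide-binding domains to move a substrate across a membrane. In epithelia of the gut and its tumors they export drugs, bile acids and conjugates (subfamilies B, C and G), move cholesterol and phospholipids (A and G), carry fatty acyl chains into peroxisomes (D), and serve heme and iron-sulfur cluster metabolism in mitochondria (part of B). Members of subfamilies E and F have the ATP-binding domains but no membrane-spanning part, and act on ribosomes and translation.

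OE-19 is an established cell line from an adenocarcinoma of the esophagogastric junction, and all libraries come from this 1 line, grown in RPMI1640 medium with fetal bovine serum and antibiotics. Poly(A) RNA was sequenced from 3 libraries of control cells (titled shControl, and Puro in the table). Another 3 libraries were of cells with IGF2BP3 knocked down (titled shIGF2BP3, here IGF2BP3 KD). The aim was to ask which transcripts depend on IGF2BP3, an RNA-binding protein that reads the m6A mark on mRNA. The labels leave unsaid the hairpin behind each IGF2BP3 KD library, whether the control cells carried a hairpin, or whether the 3 libraries of a group came from separate cultures, so the p-values measure only the spread between these libraries. The libraries held 53424071 to 69989087 counts.

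The targeted gene was checked first. *IGF2BP3* (ENSG00000136231) had 7416, 7363 and 6532 counts in the control libraries and 777, 792 and 794 in the IGF2BP3 KD libraries. All 3 KD libraries were far below all 3 controls, with a log2 fold change (KD against control) of -3.03 (standard error, SE, 0.06; adjusted p = 3.1e-10 by the quasi-likelihood test of edgeR, Benjamini-Hochberg adjusted over all 19778 tested genes, as for every adjusted p below). Its exons share 1521 bases with *MALSU1* on the opposite strand. The epithelial markers summed to 18520 to 19510 CPM (counts scaled to library size by TMM) in the controls and 20190 to 20660 in KD, most of it *ERBB2*, with *CDX1* at 0. The fibroblast markers summed to 21.2 to 24.6 CPM against 29.9 to 34.4, nearly all *COL1A1*, with *COL1A2* and *LUM* at 0. The leukocyte markers summed to 2506 to 2734 CPM against 2543 to 2616, nearly all *LYZ*, with *CD3E* at 0, and the endothelial markers to at most 0.563 CPM in any library. The part of these shifts in the results below was not tested.

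Of the 34 tested ABC transporter genes, 6 fell and 5 rose in IGF2BP3 KD cells (adjusted p under 0.05), or 32.4%, while 20.4% of all tested genes were called (10.6% lower and 9.87% higher). The lower genes included *ABCE1*, *ABCC10*, *ABCC4*, *ABCF1* and *ABCF2*, and the higher ones *ABCA1*, *ABCA5*, *ABCA2*, *ABCB6* and *ABCG2*. All 11 had a mean over 5 CPM, and calls are more frequent among abundant genes. There were 26 ABC transporter genes over 5 CPM, of which 11 (42.3%) were called, while 34.4% of the 10551 tested coding genes over 5 CPM were called (18.4% lower and 16% higher). None of the 8 tested members at or under 5 CPM was called by edgeR, and 1 of them had an unadjusted p under 0.05. With DESeq2, 7 members were lower and 5 higher.

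Changes were small. Log2 fold changes of the tested members lay between -1.01 and 0.70, with 17 below 0 and 17 above, and their median was -0.01, while the median over all tested genes was 0.01. The 3 KD libraries did not overlap the 3 controls in 16 of 34 members, while 35.8% of all tested genes had groups that did not overlap. Over 5 CPM this held for 15 of 26 members and 50.9% of the tested coding genes. By subfamily, 3 of 9 tested members of A were higher and none was lower, 1 of 7 of B was lower and 1 higher, 2 of 9 of C were lower, 0 of 3 of D were called, the single member of E was lower, 2 of 3 of F were lower, and 1 of 2 of G was higher. Fewer cells of a kind and less RNA per cell cannot be told apart in such bulk libraries.

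**Figure D1:**
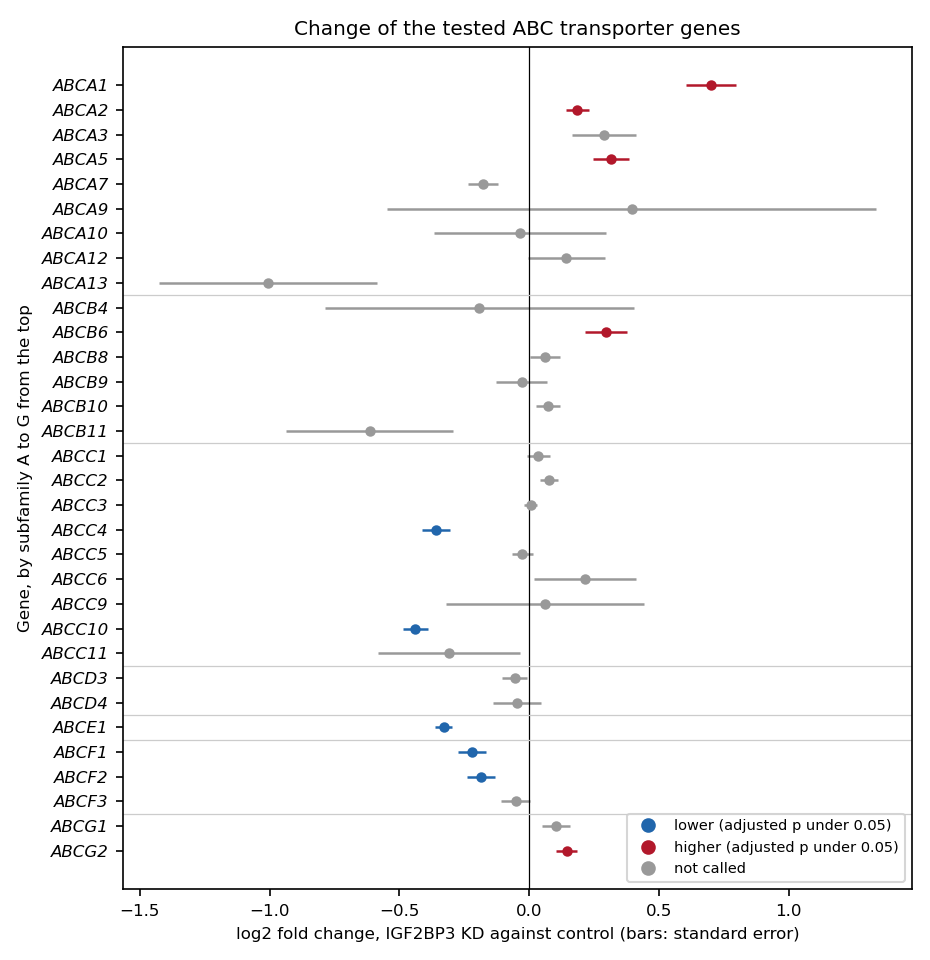
Log2 fold change (IGF2BP3 KD against control) of 32 tested ABC transporter genes, ordered by subfamily from A at the top to G at the bottom, with bars for the standard error and colors for the call at an adjusted p under 0.05. The 5 lower genes drawn lie between -0.44 and -0.18 and the 5 higher ones between 0.14 and 0.70, while the wide bars belong to genes with few counts, among them *ABCA13* at -1.01.

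Short stretches of 3′ UTR are shown because they hold, in the members that changed or were measured, words of 7 bases that an earlier analysis of these same libraries had picked out, GATTACT in genes that were lower and ACACATC in genes that were higher. Because the words came from these data, they support nothing about the members. They were read on the transcript strand of 1 canonical transcript a gene (GENCODE release 44, hg38), and the word is in capitals. The *ABCC10* stretch is chr6:43450219-43450247 on the plus strand, that of *ABCA1* is chr9:104783838-104783866 on the minus strand, and that of *ABCA13* is chr7:48646654-48646682 on the plus strand.
ABCC10: agggcaccctgGATTACTctttggaaatc
ABCA1: gtttcccggtgACACATCcattgctggca
ABCA13: ggactacaggcACACATCgccacacccgg
GATTACT was in the 3′ UTR of 1 of 45 members, *ABCC10*, which was lower, and of 1072 of 13916 tested coding genes (7.70%), of which 35.1% were lower and 6.72% higher. ACACATC was in that of *ABCA1*, which was higher, of *ABCA13*, which was not called, and of *ABCG4*, which had no counts, and of 9.54% of the tested coding genes, of which 10.7% were lower and 28.1% higher. The 5-base word TGGAC, which on RNA (with U in place of T) holds the core letters of many m6A sites, was in 29 of 45 members (64.4%) and in 61.4% of the tested coding genes. It was in 4 of the 6 lower and 3 of the 5 higher members. These shares are over 3′ UTRs of unequal length, and no word overlaps another in the stretches shown.

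The order of the members by level was led by *ABCC3*, an exporter of conjugates, and *ABCE1*, a ribosome factor. Levels between genes were compared as CPM per kilobase of annotated exon. *ABCC3*, which exports glucuronides and bile acids across the basolateral membrane, led with 61.7 ± 1.51 CPM per kilobase in the controls (SD, n = 3). *ABCE1* followed with 32.8 ± 1.08 and *ABCF1* with 22.2 ± 0.964 CPM per kilobase. *ABCD3*, *ABCB10* and *ABCG2* came next at 18.9 ± 1.35, 18.8 ± 0.953 and 18.8 ± 0.970 CPM per kilobase, and the control ranges of these 3 overlap, so their order is not resolved. *ABCC2* (16.2 ± 0.210) and *ABCA2* (15.1 ± 0.525) followed with ranges that did not overlap each other. With the longest transcript in place of all exons, *ABCC3* and *ABCE1* kept ranks 1 and 2, and *ABCD3* took rank 3 from *ABCF1*. The order below also changed: *ABCF3* went from rank 10 to 5 and *ABCB10* from 5 to 9, and *ABCC2* (rank 6) passed *ABCG2* (rank 7). The called gene with the lowest level was *ABCA1*, at rank 25 with 0.717 ± 0.0453 CPM per kilobase.

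**Figure D2:**
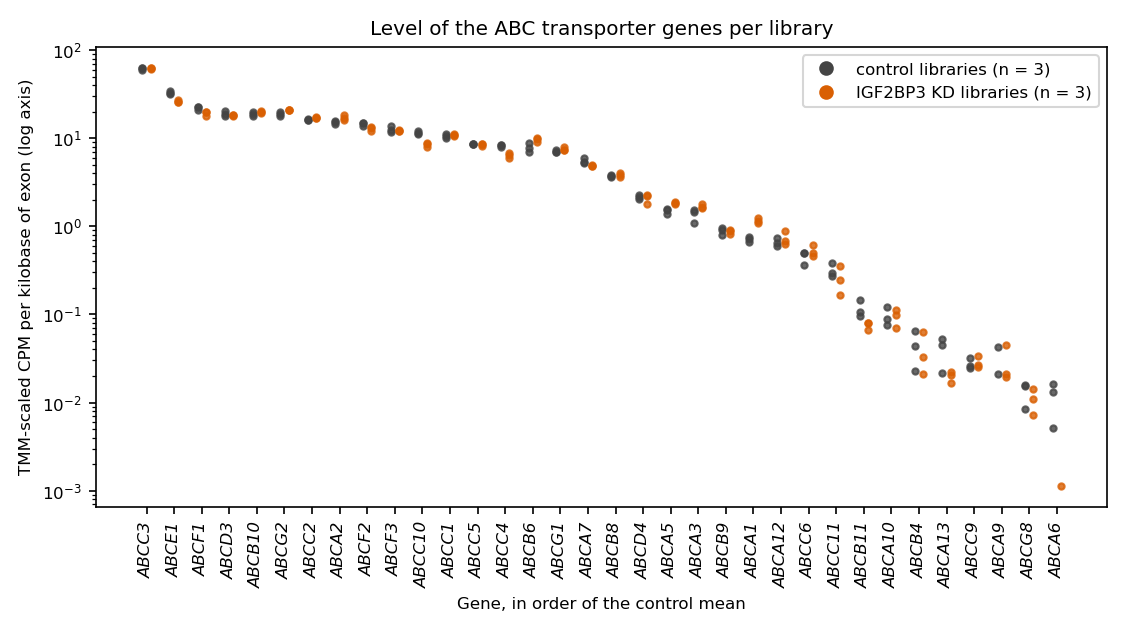
TMM-scaled CPM per kilobase of exon (log axis) in each control library (dark points, n = 3) and each IGF2BP3 KD library (orange points, n = 3) for 34 of the 36 most abundant ABC transporter genes, ordered by the control mean, with counts of 0 not drawn. Levels span from 61.7 for *ABCC3* down to 0.0115 for *ABCA6*, and the groups lie close together for most genes.

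As a family, the members summed to 2344 to 2373 CPM in the controls and 2293 to 2320 in KD, and *ABCC3* alone made 24.6% to 26.0% of the sum in every library. The sum over subfamily A was 263 to 282 CPM in the controls and 294 to 316 in KD, most of it *ABCA2*. The sum over subfamily F was 233 to 249 CPM against 203 to 220, and that over G was 145 to 153 against 161 to 165. In these 3 subfamilies the libraries of the groups did not overlap, nor did they in the sum over the family. The same held for E, which is *ABCE1* alone (200 to 213 CPM against 161 to 167). The sums of B (224 to 235 against 229 to 237 CPM), C (1058 to 1092 against 1038 to 1068) and D (169 to 193 against 175.5 to 178) did overlap. The sums were not tested, and long transcripts weigh more in them.

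The soluble members *ABCE1*, *ABCF1* and *ABCF2* fell. *ABCE1* (ENSG00000164163, chromosome 4, 145098288 to 145129524), the ATPase that splits ribosomes after termination, had 213, 203 and 200.2 CPM in the controls and 161, 167 and 162 in KD. The KD libraries were all below the controls, to 0.796-fold of the control level. The fitted log2 fold change was -0.33 (SE 0.03, adjusted p = 5.1e-05). *ABCF1* (ENSG00000204574, chromosome 6, 30571393 to 30597179), which binds ribosomes and the initiation factor eIF2, had 95, 103 and 102 CPM against 90.2, 88.0 and 79.4. The groups did not overlap, with KD replicate 3 the lowest and control replicate 1 close to KD replicate 1. This gave a log2 fold change of -0.22 (SE 0.05, adjusted p = 0.0129), and the call was lost without control replicate 2 (adjusted p = 0.0568) or control replicate 3 (0.0560).

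*ABCF2* (ENSG00000033050, chromosome 7, 151211484 to 151227205), a soluble protein of the same subfamily, had 77.0, 71.7 and 77.5 CPM in the controls and 68.1, 69.2 and 61.6 in KD. The groups were apart by a narrow gap, between control replicate 2 and KD replicate 2. The log2 fold change was -0.18 (SE 0.05, adjusted p = 0.0352), and the call was lost in the 4 fits that left out control replicate 1 or 3 or KD replicate 1 or 3 (adjusted p 0.0608 to 0.127) and with no filter on low counts (0.0614). *ABCF2* shares 1914 exonic bases with a read-through gene on the same strand, which had 12, 0 and 11 counts against 0, 0 and 18, and with these added the value was -0.19 (adjusted p = 0.0319). The third member of the subfamily, *ABCF3*, was not called, at -0.05 (95% interval -0.17 to 0.07).

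Of the ABCC exporters, *ABCC10* and *ABCC4* fell and the most abundant ones were not called. *ABCC10* (ENSG00000124574, chromosome 6, 43427366 to 43450427), an exporter of conjugates and of taxanes, had 89.5, 96.5 and 91.7 CPM in the controls and 64.7, 70.6 and 69.4 in KD. The highest KD library was well below the lowest control. The difference on the log2 scale was -0.44 (SE 0.05, adjusted p = 7.7e-05), and it stayed between -0.47 and -0.41 with each library left out in turn. Its 3′ UTR holds the GATTACT stretch printed above, and its exons share 76 bases with *DLK2* on the opposite strand.

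*ABCC4* (ENSG00000125257, chromosome 13, 95019835 to 95301475), which exports cyclic nucleotides and prostaglandins, had 72.2, 72.1 and 68.6 CPM against 51.8, 55.5 and 58.8. Every KD library was below every control, and the KD libraries spread more than the controls. The log2 fold change was -0.36 (SE 0.05, adjusted p = 7.6e-04), and all 6 fits with a library left out kept the call.

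*ABCC3* (ENSG00000108846) had 576, 604 and 599 CPM in the controls and 597, 587 and 602 in KD. The groups overlapped throughout, and the log2 fold change was 0.01 with a 95% interval of -0.05 to 0.06 (adjusted p = 0.913). *ABCC1* (ENSG00000103222), which exports glutathione conjugates and anticancer drugs, had 88.0, 92.2 and 97.6 CPM against 93.0, 94.0 and 97.6, which is 0.04 with an interval of -0.06 to 0.14 (adjusted p = 0.667). *ABCC2* (ENSG00000023839), the apical exporter of bilirubin glucuronides, had 129, 126 and 127 CPM against 134, 131 and 137. Its groups did not overlap, but the log2 fold change of 0.08 (interval 0.00 to 0.15) did not pass the adjustment (adjusted p = 0.141).

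Both drug efflux pumps best known outside subfamily C were measured, at very different depth. *ABCG2* (ENSG00000118777, chromosome 4, 88090150 to 88231628), the breast cancer resistance protein, had 106, 99.6 and 110.4 CPM in the controls and 116, 117 and 117 in KD. The KD libraries lay together just above the highest control. The log2 fold change was 0.14 (SE 0.04, adjusted p = 0.0302), and the call was lost without control replicate 2 or any 1 of the KD replicates (adjusted p 0.0856 to 0.126) and with no filter on low counts (0.103). *ABCB1* (ENSG00000085563), the gene of P-glycoprotein, had 0, 0 and 4 counts in the controls and 0, 0 and 13 in KD, below the level needed for the test. Any difference in *ABCB1* was not detectable at this depth, and with no filter its adjusted p was 0.714.

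In subfamily A, 3 lipid transporters rose. *ABCA1* (ENSG00000165029, chromosome 9, 104781006 to 104928155), which loads cholesterol and phospholipids onto apolipoprotein A-I, had 8.60, 8.21 and 7.58 CPM in the controls and 12.4, 14.1 and 13.2 in KD. The lowest KD library was well above the highest control. This was the largest change of the called members, 1.62-fold, with a log2 fold change of 0.70 (SE 0.10, adjusted p = 3.9e-04), and it stayed between 0.65 and 0.74 with each library left out. Its 3′ UTR holds the ACACATC stretch printed above, and its exons overlap no other gene.

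*ABCA5* (ENSG00000154265, chromosome 17, 69244311 to 69327244), a lipid transporter of lysosomes and late endosomes, had 20.6, 18.2 and 19.9 CPM against 24.5, 23.9 and 24.9. The groups were apart, with a log2 fold change of 0.32 (SE 0.07, adjusted p = 0.0069). It shares 318 exonic bases with *ABCA10* on the same strand, which was not called at -0.04. *ABCA2* (ENSG00000107331, chromosome 9, 137007234 to 137028915), an endolysosomal lipid transporter, had 167, 179.5 and 174 CPM against 197, 187 and 209. All KD libraries were above the controls, KD replicate 2 by the least. The fitted log2 fold change was 0.19 (SE 0.04, adjusted p = 0.00958), and the call was lost without KD replicate 3 (0.14, adjusted p = 0.0502).

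Other members of A, named after their values were seen, did not pass the test. *ABCA7*, a phospholipid transporter, had 49.7, 56.9 and 51.7 CPM in the controls and 45.8, 46.8 and 47.2 in KD. Its groups did not overlap and its log2 fold change was -0.18 (adjusted p = 0.0510), but it was called lower with DESeq2, with RLE scaling, with at least 10 counts required in every library, with the replicate block, among coding genes only and without control replicate 1. *ABCA3*, which moves surfactant phospholipids, had 8.60, 11.4 and 12.1 CPM against 12.4, 13.8 and 12.9, a difference of 0.29 (adjusted p = 0.136). *ABCA13* was at -1.01 with an SE of 0.42 (adjusted p = 0.126), at 0.410 to 1.01 CPM in the controls and 0.317 to 0.426 in KD.

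Of the mitochondrial and related members of B, the most abundant was not called. *ABCB10* (ENSG00000135776), which acts in heme synthesis, had 84.1, 81.1 and 76.0 CPM against 84.7, 86.8 and 82.4. These ranges overlap, and the value was 0.07 (interval -0.03 to 0.18, adjusted p = 0.330).

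*ABCB6* (ENSG00000115657, chromosome 2, 219209772 to 219218994), linked to porphyrin transport, had 46.1, 36.1 and 40.3 CPM against 50.7, 52.3 and 47.4. The groups were apart, with a log2 fold change of 0.30 (SE 0.08, adjusted p = 0.0245). Its exons share 2841 bases with a read-through gene on the same strand (ENSG00000284820), which had 472, 1872 and 1198 counts in the controls and 343, 490 and 811 in KD. Summed over both rows, the counts were 3629, 4386 and 3561 against 3079, 3738 and 3800, and the call ended (log2 fold change 0.0044, adjusted p = 0.977). The call was also lost in 4 of 6 fits with a library left out, without control replicate 2 or 3 or KD replicate 1 or 2 (adjusted p 0.0874 to 0.0943), and with no filter (0.0726).

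No tested member of D was called. *ABCD3* (ENSG00000117528), which carries branched and dicarboxylic acyl-CoA into peroxisomes, had 156, 135 and 144 CPM in the controls and 140.2, 141 and 137 in KD. The KD libraries lay inside the control range, at -0.06 (interval -0.16 to 0.05, adjusted p = 0.491). *ABCD4* was at -0.05 (interval -0.25 to 0.16), an interval that still allows changes as large as those of several called members.

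**Figure D3:**
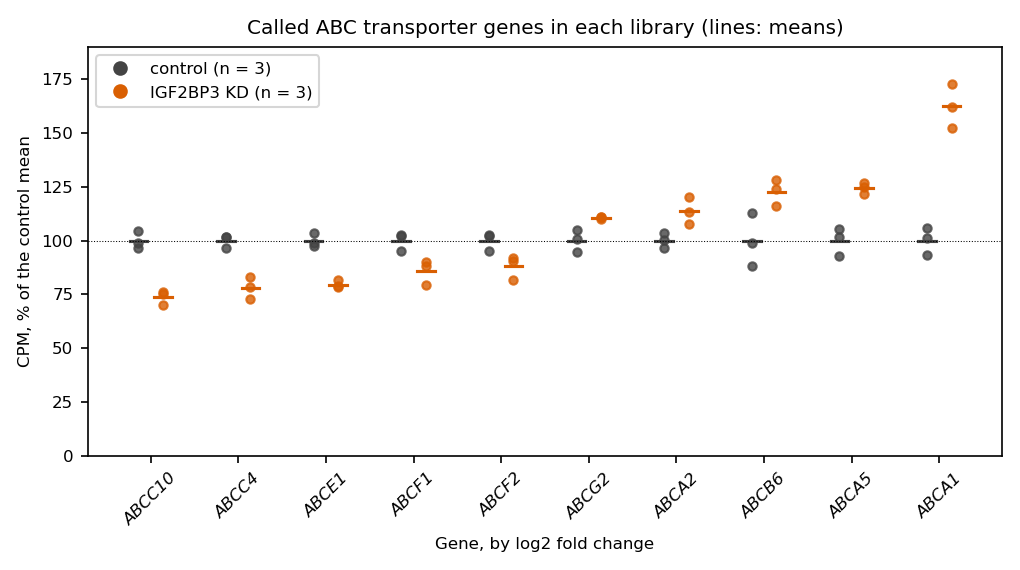
CPM of 10 called ABC transporter genes in each library, as a percentage of the gene's control mean, for 3 control libraries (dark) and 3 IGF2BP3 KD libraries (orange), with lines for the group means. The genes are ordered by log2 fold change, from *ABCC10* (-0.44) to *ABCA1* (0.70), and the groups do not overlap in any of the 10.

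The 11 members not tested had few or no counts. *ABCA4*, *ABCA8*, *ABCC12*, *ABCD2* and *ABCG4* had 0 counts in every library, which allows up to 0.0431 to 0.0556 CPM in a library (3 counts, for counting error only). *ABCB5*, *ABCC8*, *ABCG5* and *ABCG8* had at most 13 counts in any library. *ABCA6*, named after its values were seen, had 5, 16 and 11 counts in the controls and 0, 1 and 0 in KD. Its depth-scaled ratio was 0.0343 with an exact 95% counting interval of 0.00084 to 0.206, and with no filter its adjusted p was 0.0738.

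Counts can be shared where genes overlap. In the annotation, 28 members share no exon with another gene and 17 do, 7 of them with a gene on the same strand. Of the called members, *ABCA1*, *ABCA2*, *ABCC4*, *ABCF1* and *ABCG2* are among those that share none. *ABCE1* shares exonic bases with 2 genes on the opposite strand, 276 in the larger overlap. The kit kept strand, but the strand setting of the counting is not given in the sources used here.

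Of the ABC proteins whose symbols do not follow the family pattern, the antigen peptide transporter subunits were measured apart. *TAP1* (ENSG00000168394) had 10.8, 13.7 and 13.8 CPM in the controls and 19.8, 21.5 and 20.3 in KD. The groups were far apart, with a log2 fold change of 0.69 (SE 0.10, adjusted p = 5.4e-04), kept in 6 of 6 fits with a library left out. Its partner subunit *TAP2* (ENSG00000204267) had 26.9, 26.0 and 25.4 CPM against 23.4, 23.7 and 25.0, and was not called at -0.12 (adjusted p = 0.208). *CFTR*, the chloride channel of the family, had 1, 3 and 4 counts against 6, 1 and 7 and was not tested.

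Genes that work with ABC transporters were grouped into 8 lists, which with *TAP1*, *TAP2* and *CFTR* held 145 genes. Of these, 131 were tested, 27 lower and 31 higher (44.3%, against 20.4% of all tested genes and 34.4% of coding genes over 5 CPM). Some of the 131 lie at or under 5 CPM, so the last share is of an unlike set. The lists were drawn up with earlier results of these data known, so their shares of called genes support nothing about them. The partners of E and F (ribosome recycling, termination and eIF2 control) had 11 of 19 tested genes lower and 2 higher, and its median was -0.17 on the log2 scale. *EIF2S1*, the alpha subunit of eIF2, went from 118 ± 2.85 to 87.3 ± 1.44 CPM (SD, n = 3; log2 fold change -0.44), and *DENR*, which helps release tRNA in recycling, was at -0.38. The higher ones were *EIF2D* (0.33) and *EIF5* (0.23). The partners of TAP (MHC class I loading) had 7 of 13 genes higher and 1 lower, with a median of 0.14. *TAPBP*, which docks TAP to class I molecules, was at 0.46. *PSMB9*, an immunoproteasome subunit with 0.445 to 1.46 CPM, was at 1.01 (adjusted p = 0.0411), a call kept in 3 of 12 alternatives: it was lost in 5 of 6 fits with a library left out, with DESeq2 (0.0505), with the replicate block (0.0548), among coding genes only (0.0592) and with no filter (0.101).

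The lipid efflux and sterol list had 6 of 14 tested genes higher and 3 lower. *NPC1*, which moves cholesterol out of lysosomes, had 66.9, 64.2 and 65.7 CPM in the controls and 33.6, 32.3 and 36 in KD. It fell in every KD library to about 0.518-fold (log2 fold change -0.95, SE 0.05, adjusted p = 7.5e-07). *MYLIP*, the ubiquitin ligase of the LDL receptor, was also lower (-0.55). *NR1H3*, the liver X receptor alpha that drives *ABCA1* and *ABCG1* transcription, was at 0.33 (adjusted p = 0.0106). In the same list *NR1H2*, the liver X receptor beta, was at 0.0042 and *SREBF1* at 0.011, and neither was called. All of these are named after their values were seen, and their part in the change of *ABCA1* was not tested. *ABCG1* was not called at 0.10 (interval -0.02 to 0.22).

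Of the peroxisome list, 5 of 25 were lower and 6 higher, among them *PEX16*, which acts in peroxisome membrane assembly, at -0.44. The solute carriers, mostly uptake partners of the exporters, had 4 of 12 tested genes higher and 1 lower, led by the organic cation carrier *SLC22A3* (0.66) and the peptide carrier *SLC15A1* (0.61). Among xenobiotic and bile acid sensors, 2 of 11 were higher and 1 lower, with *PPARA* at 0.46 and *VDR*, the vitamin D receptor, at 0.21. In the glutathione list 2 of 13 were higher and 1 lower, with the transferases *GSTA4* at 0.47 and *MGST3* at 0.19. In the heme and iron-sulfur cluster list 4 of 22 were lower and 1 higher. *FECH*, which inserts iron into protoporphyrin to form heme, was at 0.37, and *LYRM4*, a cluster assembly factor, was at -0.31. The *LYRM4* call was kept in 2 of 6 fits with a library left out and lost with no filter (adjusted p = 0.0521). Among the genes named so far, mostly for large called changes, *MYLIP*, *EIF2S1* and *PPARA* hold GATTACT in the 3′ UTR. *PPARA*, *TAPBP*, *GSTA4*, *SLC22A3*, *EIF5* and *TAP2*, which was not called, hold ACACATC. *PPARA*, which was higher, thus holds both words. Other genes of the lists, named after their values were seen, also hold a word. *SLCO1A2*, which was higher, and *GSR*, not called, hold GATTACT, and *RXRB* and *NR1I2*, not called, hold ACACATC. The words came from these data and support nothing about these genes. Of the genes named from these lists, *NPC1*, *TAPBP*, *VDR*, *NR1H3*, *NR1H2*, *SREBF1*, *RXRB*, *TAP1* and *CFTR* share exonic bases with a gene on the opposite strand. *PSMB9*, *TAP2* and *NR1I2* share them with 1 on the same strand.

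**Figure D4:**
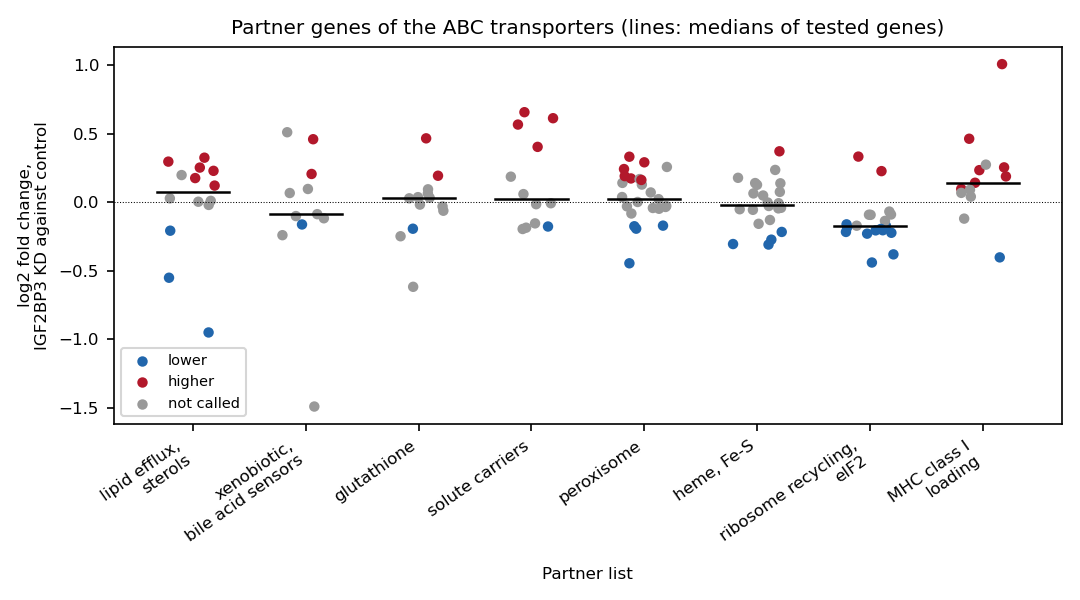
Log2 fold change (IGF2BP3 KD against control) of tested genes of the 8 partner lists (1 gene not drawn), each point a gene, colored by its call at an adjusted p under 0.05, with a line at each list's median. The ribosome recycling and eIF2 list has 11 lower points and a median of -0.17, and the MHC class I list has 7 higher points and a median of 0.14.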

How the data were processed

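Poly(A) RNA of 6 OE-19 libraries was measured. HISAT2 aligned the reads to hg38 and featureCounts counted them per gene, as the authors state (fastp is also listed in the submitters' processing notes), and the deposited values are these raw counts. Tool versions, annotation release and strand setting are not given in the sources used here. The table has 60612 rows. Of 44 identifiers listed more than once, the first entry was kept and 132 further ones were dropped.

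The test was the quasi-likelihood F-test of edgeR 4.0.16 (R 4.3.3) on TMM-scaled libraries, after filterByExpr (minimum count 10, minimum total 15), fitted with glmQLFit and no block (Benjamini-Hochberg over 19778 genes, threshold 0.05), which stands behind every adjusted p unless DESeq2 is named. The paper's methods name DESeq2, used here (1.42.0) as an alternative. The square root of the common dispersion was 0.148. A chi-square per degree of freedom was 9.86 to 17.6 between libraries of 1 group and 46.3 to 58.2 across groups, and no pair looked like 1 library deposited again. TMM factors were 0.992 to 1.01. Intervals on fold changes are 95% intervals of the fit, and those on count ratios cover counting error only. Positions, overlaps, exon lengths and 3′ UTRs come from GENCODE release 44 on hg38, where all 45 members were found.

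On simulated data with 200 changed genes among 19778, the test recovered 40 of 48 genes changed by 0.5 (log2) and 47 of 50 changed by 1 over 5 CPM, but only 1 of 52 (1.92%) and 3 of 50 (6.00%) at or under 5 CPM. It called 11 unchanged genes. Changes under 0.5, as in all called members but *ABCA1*, were not simulated. This check was first set over all levels together, where it missed its target because of the low genes, and the division at 5 CPM was made after that was seen.

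The members and lists were chosen with earlier results of these data known. Genes were named if they were called members, the most abundant member of a subfamily, *ABCB1*, *ABCC1*, *ABCC2*, *ABCC3*, *ABCG2*, *TAP1*, *TAP2*, *CFTR*, *IGF2BP3*, or the 2 called genes with the largest absolute change in a partner list. Other members and partner genes were named after their values were seen. This is not said at each of them, as with *EIF2D*, *EIF5*, *ABCF3*, *ABCD4* and *ABCG1*. Alternatives were DESeq2, RLE scaling, no filter, a minimum of 10 counts per library, the replicate block, each library left out, coding genes only and other thresholds. Adding the read-through rows was chosen after seeing the data. A few genes are not reported by name or drawn here, and counts include them.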

Additional observations from a re-analysis of the deposited data

How the results depend on the processing

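Of 410 values of 34 named genes under the alternatives, 371 kept direction and side of the threshold, 33 lost the call and 6 reversed, all 6 in *ABCC1* or *ABCC3*, which were not called. *ABCC1* was -0.0022 without control replicate 1 (at most 0.072 with another library left out). *ABCC3* was -0.00075 with DESeq2, -0.0032 with no filter, -0.016 without control replicate 1, -8.7e-05 without IGF2BP3 KD replicate 1 and -0.0051 without IGF2BP3 KD replicate 3 (at most 0.016 with another left out). With no filter 3 members were higher, and at an adjusted p under 0.01 also 3. With a change of 1 or more on the log2 scale also required, 0 members were lower and 0 higher, although 15 had an unadjusted p under 0.05 in edgeR. At 0.01, all genes gave 1314 lower and 1098 higher and the partner genes 16 and 19. With that size required they gave 78 and 83, and 1 and 1. Leaving out each library in turn gave 5 to 7 lower and 3 to 5 higher members, and 20 to 25 lower and 20 to 28 higher partner genes, the 20 higher without IGF2BP3 KD replicate 3. The fits with fewer libraries also have fewer degrees of freedom. The replicate block, whose numbers are not said by the labels to pair the samples, gave 7 lower and 5 higher members. It gave 2026 lower and 1875 higher genes, and 27 and 27 partner genes. Deviations from the group means correlated at -0.03, -0.09 and -0.08 between same-numbered libraries over 14289 genes, and no control library correlated best with its own number. Apart from *ABCA7*, gained, and *PSMB9*, lost, it changed no call among members and named genes. Without control replicate 1 *ABCA6* and without control replicate 3 *ABCA13* were called lower. The median log2 fold change of all genes stayed within 0.02 of 0 in each setting. *IGF2BP3* stayed between -3.10 and -3.002 with each library left out. Depth limits the 19 members at or under 5 CPM, where changes of the size of the called ones would mostly be missed.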

Other observations

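Another 17 rows of the table have symbols that begin with those of ABC members but fall outside the rule, 14 pseudogenes, 2 long noncoding RNAs and 1 coding gene. Of these, 3 were tested and 1 was called, and 7 had 0 counts in every library. The called row was the pseudogene *ABCA11P*, named after its values were seen, with 317, 244 and 330 counts in the control libraries and 132, 192 and 169 in the IGF2BP3 KD libraries. All KD libraries were below all controls, and the edgeR value was -0.74 on the log2 scale (SE 0.20, Benjamini-Hochberg adjusted p = 0.0222).

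Pseudogene copies of some members had few counts. The *ABCC6* copies *ABCC6P1* and *ABCC6P2* had 0 to 15 and 0 to 6 counts in a library, and *ABCF2P1*, a copy of *ABCF2*, had 1 to 3. The *ABCB10* copies *ABCB10P1*, *ABCB10P3* and *ABCB10P4* had 0 to 4.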
